A study of Mus musculus with 32 samples.

Results

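The proto-oncogene *Myc* and a set of genes that mostly build ribosomes were followed through the 7 sample groups of a mouse study of B-cell leukemia. The set has 40 genes, *Myc* included. Of those measured, 7 serve polyamine or pyrimidine synthesis, mitochondria or nuclear import instead. A gene counted as measured where a probeset of the Affymetrix mouse gene array named that gene alone. Where several did, the probeset with the highest mean over all 32 arrays stood for the gene. By this rule 39 of the 40 were measured, of 19938 genes with such a probeset, and *Ppan*, whose probeset names a second gene as well, was left out. The leukemic groups were bone marrow of 6 diseased Pax5+/- mice, which carry 1 intact allele of the B-cell transcription factor gene *Pax5*, and of 6 diseased Pax5+/-;Myd88+/- mice, which also lack 1 allele of *Myd88*, the adaptor of Toll-like and interleukin-1 receptors. Their control was B220low IgM- proB and preB cells sorted from the marrow of 4 healthy wild-type (WT) mice. The remaining groups, with 4 arrays each, were proB cells of healthy WT, Pax5+/-, Pax5+/-;Myd88+/- and Pax5+/-;Myd88-/- mice. The labels call these MACS-sorted B220+ marrow cells, whereas the methods describe proB cells of young WT, Pax5+/- and Pax5+/-;Myd88+/- mice grown with interleukin-7 on ST2 stromal feeder cells and do not describe the Pax5+/-;Myd88-/- cells. The labels give all mice the same keeping, pathogen-free until 2 months of age and then exposed to common pathogens in a conventional facility, with no treatment.

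MYC is a transcription factor that drives cell growth, and it acts in large part by raising the output of ribosomes. In the nucleolus RNA polymerase I copies the ribosomal RNA precursor, small nucleolar particles of the box C/D and H/ACA kinds modify it, and assembly factors fold and cut it into the small and the large subunit. Growing precursor B cells depend on this machinery, and *MYC* is often raised in B-cell leukemia and lymphoma.

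MYC binds DNA best at the letters CACGTG, the E-box, which read the same on both strands. A window from 250 bases before to 50 bases after an annotated transcript start was at hand for 31 of the 39 measured genes, from RefSeq on build GRCm38.p6, and 9 of them (29.0%) held CACGTG, against 8.09% of 27025 mouse genes. The 30-base stretches that hold these letters are printed here to show where the E-box lies in each gene, with the E-box in capitals and each read 5′ to 3′ on the gene's strand.
Mybbp1a (chr11:72441347-72441376, plus strand): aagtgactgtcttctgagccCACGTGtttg
Imp4 (chr1:34439696-34439725, plus strand): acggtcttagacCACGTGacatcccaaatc
Wdr43 (chr17:71616220-71616249, plus strand): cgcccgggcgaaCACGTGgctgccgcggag
Utp20 (chr10:88826765-88826794, minus strand): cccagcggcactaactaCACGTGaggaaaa
Nop2 (chr6:125131811-125131840, plus strand): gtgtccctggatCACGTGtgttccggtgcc
Pes1 (chr11:3963965-3963994, plus strand): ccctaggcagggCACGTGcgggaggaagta
Grwd1 (chr7:45830740-45830769, minus strand): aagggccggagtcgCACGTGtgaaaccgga
Hspd1 (chr1:55088306-55088335, minus strand): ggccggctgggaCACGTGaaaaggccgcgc
Ipo4 (chr14:55635653-55635682, minus strand): tgtcggagtctcCACGTGccgatcctcccc
The related letters CACGCG, searched on both strands, stood in the windows of 9 of the 31 genes, against 10.5% of all genes. For *Grwd1*, *Ipo4* and *Wdr43* the transcript start used lies inside the annotated gene, and counted from the gene's outer start the E-box begins at base 240, 199 and 55, while for the other 6 genes both starts are the same. A match is only a match of letters in this window and was not tested as a site.

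Before the results, the samples were checked against their labels. The mean of 13 early B lineage markers lay between 11.68 and 11.88 (log2) in the sorted WT cells and between 11.19 and 11.93 in the proB arrays. In the leukemias it reached down to 8.53 and 8.75 in Pax5+/- replicates 2 and 4 and to 9.55 and 9.73 in Pax5+/-;Myd88+/- replicates 4 and 2, and in the other 8 leukemias it was between 10.42 and 11.59. Granulocyte markers, 13 genes, averaged up to 11.55 in the Pax5+/- leukemias, up to 9.99 in the Pax5+/-;Myd88+/- leukemias, 7.01 to 9.50 in sorted WT cells and 5.96 to 6.12 in the proB arrays. The marker lists of macrophages (13 genes) and platelets (7 genes) reached 9.23 and 10.66 in the leukemias, against at most 6.79 and 6.96 in sorted WT cells. Erythroid, T and NK cell markers were highest in sorted WT cells and stromal markers lowest there, apart from Pax5+/-;Myd88+/- leukemia replicate 2, whose erythroid mean was 8.09. By *Xist*, which only cells with an inactive X chromosome express, the 4 arrays of each proB genotype were of 1 sex, male for WT and Pax5+/- and female for both *Myd88*-deficient genotypes, and the sorted WT cells were female. In the leukemias *Xist* ranged from 5.44 to 9.72 (Pax5+/-) and from 5.39 to 12.8 (Pax5+/-;Myd88+/-), against 12.23 to 12.46 in sorted WT cells. Leukemias and control were thus not matched by sex. The *Myd88* signal itself followed the labels, at 7.04 to 7.44 in Pax5+/-;Myd88-/- proB cells against 8.51 or more in the other proB arrays, and at 8.26 to 9.39 in Pax5+/-;Myd88+/- against 9.87 to 10.38 in Pax5+/- leukemias. In such mixed samples fewer cells of a type and less RNA per cell cannot be told apart.

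*Myc* itself (chr15:61985341-61990361) was lowest in sorted WT cells, under every array of the other 6 groups. The sorted WT cells read 9.57, 9.77, 9.52 and 9.50 (log2 of the array signal, as for all values that follow). The Pax5+/- leukemias had a lowest value of 10.89, a median of 11.69 and a highest of 12.03, and the Pax5+/-;Myd88+/- leukemias 10.22, 11.145 and 11.82. Every leukemia thus lay above every sorted WT array, and the 2 leukemic groups overlapped. The rise over sorted WT was 2.03 in Pax5+/- leukemia (SE 0.26, 4.07-fold, limma adjusted p = 5.78e-05) and 1.52 in Pax5+/-;Myd88+/- leukemia (SE 0.26, 2.86-fold, limma adjusted p = 0.000316), with 6 and 6 leukemias against the same 4 WT arrays. The 2-sided exact permutation p was 0.00476 in either case, the smallest these numbers of arrays allow. *Myc* read lowest in the leukemias with few B lineage markers: Pax5+/- replicate 2 had the lowest value of its group, as had Pax5+/-;Myd88+/- replicate 4. Without the 4 leukemias of lowest B lineage markers the rises were 2.25 and 1.77.

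**Figure D1:**
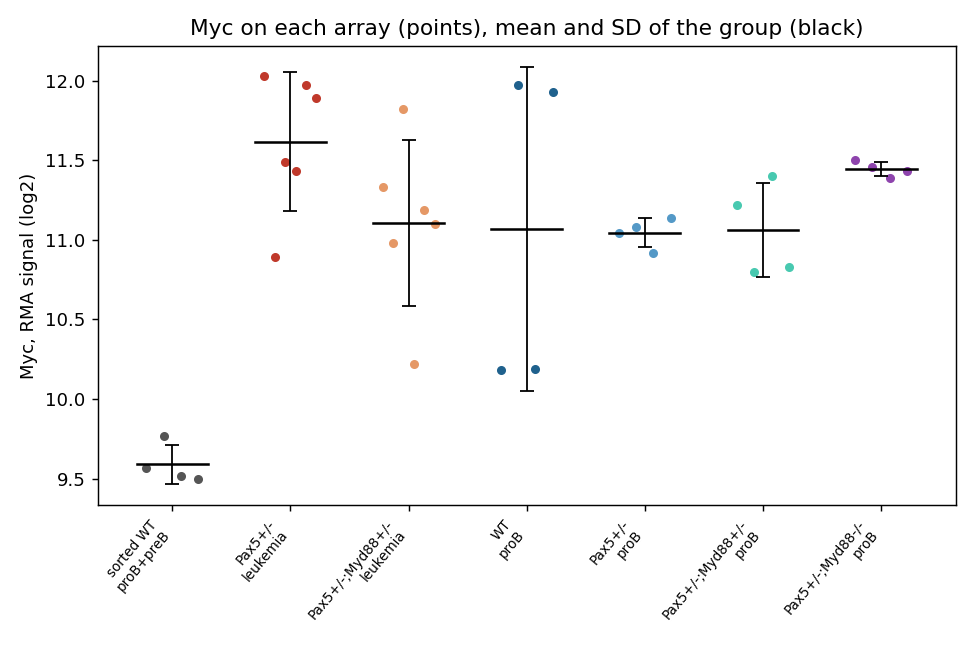
*Myc* signal (log2 of the array value, vertical axis) on each of 32 arrays in the 7 groups (horizontal axis), with points for arrays and black bars for the group mean and SD. The 4 sorted WT arrays lie at 9.50 to 9.77, under all others, and the 4 WT proB arrays fall into a pair near 10.18 and a pair near 11.93.

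In the proB groups *Myc* stood between sorted WT cells and the highest leukemias. The Pax5+/- cells read 11.04, 11.08, 10.92 and 11.14, the Pax5+/-;Myd88+/- cells 11.22, 10.80, 11.40 and 10.83, and the Pax5+/-;Myd88-/- cells 11.50, 11.46, 11.39 and 11.43. The WT proB cells read 10.18, 11.97, 10.19 and 11.93, so that replicates 1 and 3 lay under, and replicates 2 and 4 above, every array of the other 3 genotypes. The order of the group means was 9.59 in sorted WT, 11.04 in Pax5+/- proB, 11.06 in Pax5+/-;Myd88+/- proB, 11.07 in WT proB, 11.11 in Pax5+/-;Myd88+/- leukemia, 11.44 in Pax5+/-;Myd88-/- proB and 11.62 in Pax5+/- leukemia. Neighbouring groups above sorted WT overlapped in their arrays.

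The Pax5+/- leukemias carried more transcript of most of the 39 genes than sorted WT cells. Of the 39 genes, 29 rose and none fell (limma, adjusted p under 0.05), where 11.7% of all 28944 probesets rose and 12.8% fell. At an unadjusted p under 0.05, 33 rose and again none fell, but the share of all probesets at that threshold was not counted. The methods list an unpaired t-test among their general statistics without assigning it to the arrays. It is called the methods' t-test here, and the Benjamini-Hochberg adjustment was added to it. After that adjustment it also gave none that fell. The median change of the 39 was 0.74, against -0.03 over all probesets, and 8 rose more than 2-fold (2.73% of all probesets did, and 1.72% fell as far). In 27 of the 39 no leukemia overlapped a sorted WT array, as in 21.2% of all probesets.

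All 5 nucleolar regulators rose. *Mybbp1a*, a nucleolar MYB-binding protein that acts on ribosomal RNA synthesis, read 9.41, 9.29, 9.24 and 9.18 in sorted WT cells and 10.09 at lowest, 10.55 at the median and 10.86 at highest in the Pax5+/- leukemias. No leukemia came near the WT range, and the rise was 1.26 (SE 0.16, limma adjusted p = 6.85e-05). *Gnl3*, the nucleolar GTPase nucleostemin, rose by 1.25 (SE 0.18) and *Npm1*, the abundant nucleolar chaperone nucleophosmin, by 0.46. The nucleolar helicase gene *Ddx21* rose by 0.78 and *Ncl*, which encodes the abundant protein nucleolin, by 0.71. Of the 2 genes of RNA polymerase I transcription, *Polr1b*, the second-largest subunit of the enzyme, rose by 1.09 (SE 0.21, limma adjusted p = 0.00162), while *Tcof1*, which encodes the factor treacle, changed by 0.40 and did not pass.

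Of the small nucleolar particles, 2 of 4 box C/D genes and 2 of 4 H/ACA genes rose. *Nop58*, a core protein of the box C/D particle, read 9.20, 9.49, 9.40 and 9.05 in sorted WT cells and 10.00, 10.33 and 10.48 (lowest, median, highest) in the Pax5+/- leukemias, a rise of 0.99 with no overlap. *Rrp9*, which binds the U3 particle that starts the cutting of the precursor, rose by 0.91 (SE 0.13). *Fbl*, the methyltransferase of the box C/D particle, did not pass with its brighter probeset (0.34), while its other probeset gave 0.65 (limma adjusted p = 0.00073). *Nop56*, the partner of NOP58 in the particle, did not pass either at 0.36. In the H/ACA particle, which makes pseudouridine, *Nhp2* rose by 0.74 and the pseudouridine synthase gene *Dkc1*, which lies on the X chromosome, by 0.70. *Nolc1*, a nucleolar phosphoprotein that binds these particles, did not pass at 0.42, and *Gar1*, a core protein of the particle, was at 0.10 (95% interval -0.15 to 0.35).

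Assembly factors of both subunits were higher as well, 5 of 6 for the small and 8 of 10 for the large subunit. *Utp20*, a scaffold of the small-subunit processome, read between 8.61 and 8.65 in the 4 WT arrays and between 9.34 and 9.87 in the leukemias, and rose by 1.02. The small-subunit processome genes *Wdr43* and *Heatr1* rose by 0.87 and 0.54, *Rrp12*, a factor of precursor maturation and export, by 0.76 and *Noc4l*, a factor of small-subunit maturation, by 0.57. *Grwd1*, a chaperone-like factor of the large subunit, rose by 1.07 and *Pes1*, a core member of the complex that matures the large-subunit RNA, by 0.57. *Wdr12*, its partner in that complex, rose by 0.95, while *Bop1*, the other partner, did not pass at 0.51. The further large-subunit factors *Mrto4*, *Nop16*, *Rrs1*, *Ddx18* and the RNA methyltransferase gene *Nop2* rose by 0.48 to 0.85, and *Wdr74* did not pass at 0.34. *Imp4*, a U3 particle protein, did not pass at -0.05 (95% interval -0.39 to 0.30). Outside the nucleolus, 5 of 7 genes rose. *Srm*, the spermidine synthase gene and a textbook MYC target, read 10.00, 9.95, 10.01 and 9.88 in sorted WT cells and 11.00, 11.36 and 11.70 (lowest, median, highest) in the Pax5+/- leukemias. Its rise of 1.37 (SE 0.18, 2.58-fold) was second to that of *Myc* among the 39. *Cad*, the enzyme that starts pyrimidine synthesis, rose by 1.13, the mitochondrial chaperonin genes *Hspd1* and *Hspe1* by 0.94 and 0.95, and *Ipo4*, a nuclear import receptor, by 0.87. *Tfb2m*, a mitochondrial transcription factor, did not pass at -0.11, and *Odc1*, the enzyme that starts polyamine synthesis, was at 0.07 (95% interval -0.35 to 0.49).

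**Figure D2:**
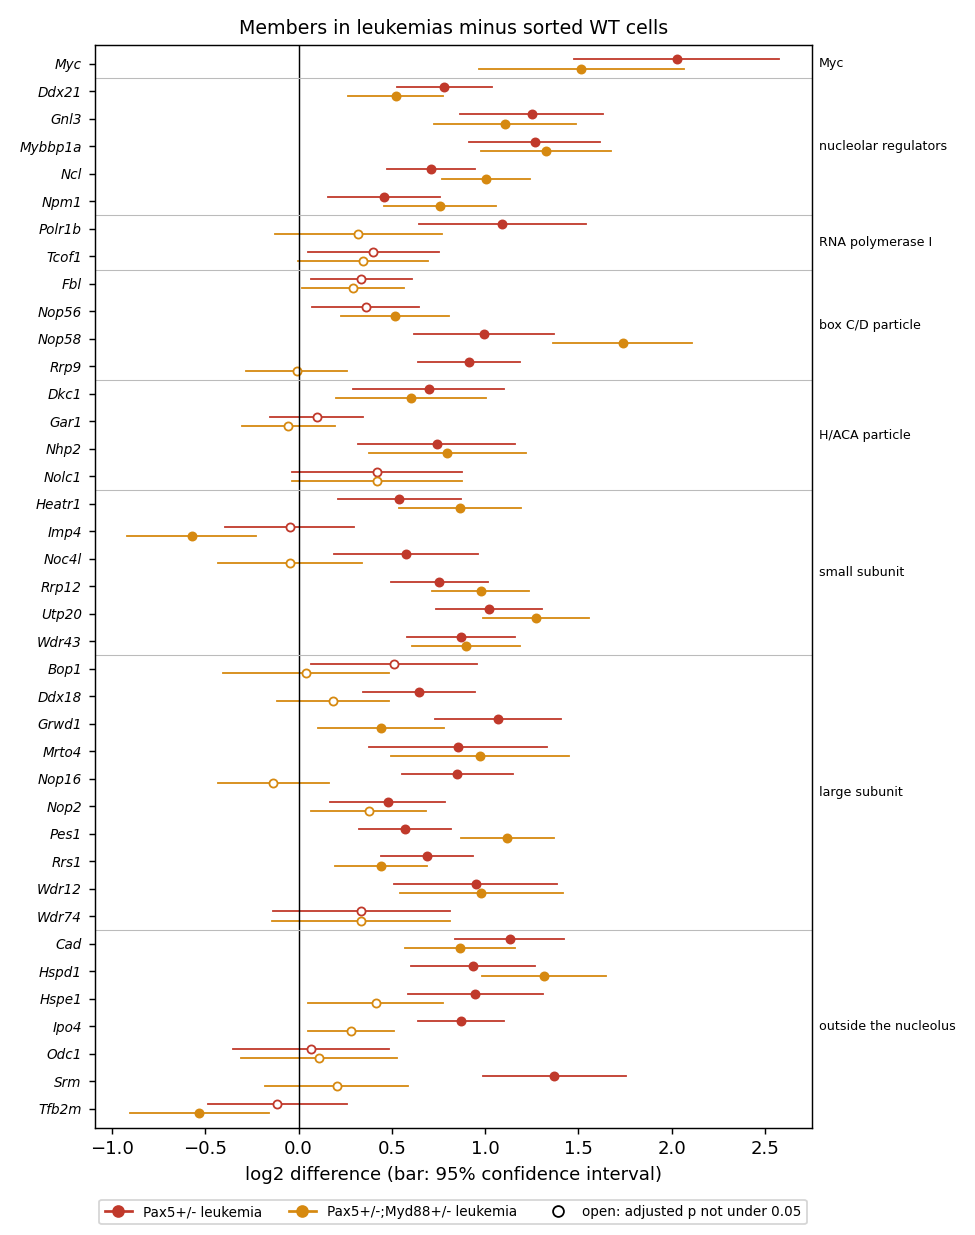
Difference in log2 signal (horizontal axis) of each of the 39 genes (vertical axis, grouped by role) between Pax5+/- leukemia (red) or Pax5+/-;Myd88+/- leukemia (orange) and sorted WT cells, with 95% confidence intervals. Filled points passed at an adjusted p under 0.05, 29 higher in the first comparison, and 21 higher and 2 lower in the second, and both share the 4 WT arrays.

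In the Pax5+/-;Myd88+/- leukemias fewer of the genes were raised over the same 4 sorted WT arrays. There 21 rose and 2 fell, where 13.8% of all probesets rose and 17.1% fell, with a median of 0.44 against -0.01 over all probesets. More than 2-fold rises numbered 8 and falls 0 (3.33% and 4.3% of all probesets), and 21 genes had no overlap with the WT arrays (27.5% of all probesets). *Nop58* rose most, by 1.74 (SE 0.18, 3.33-fold, limma adjusted p = 2.13e-06), with 10.52, 11.13 and 11.46 as lowest, median and highest leukemia. *Mybbp1a* rose by 1.33, *Utp20* by 1.27, *Pes1* by 1.12 and *Ncl* by 1.00. All 5 nucleolar regulators rose here as well, with 2 of 4 box C/D, 2 of 4 H/ACA, 4 of 6 small-subunit, 5 of 10 large-subunit and 2 of 7 genes outside the nucleolus, and neither RNA polymerase I gene passed. *Hspd1* rose by 1.32 with its brighter probeset, but its other probeset gave 0.43 and did not pass.

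Several genes that rose in Pax5+/- leukemia did not pass here. *Rrp9* lay between 8.06 and 8.21 in the 6 Pax5+/-;Myd88+/- leukemias and between 8.08 and 8.26 in sorted WT cells, a difference of -0.01 (95% interval -0.28 to 0.26). *Nop16*, a nucleolar protein of the large-subunit path, differed by -0.14 and *Srm* by 0.20, neither passing. *Imp4* fell by 0.57 (limma adjusted p = 0.0136), with 9.49, 9.775 and 10.09 in the leukemias against 10.32, 10.26, 10.45 and 10.37. *Tfb2m* fell by 0.53 (limma adjusted p = 0.0302). Without the 4 leukemias of lowest B lineage markers *Imp4* was at -0.475 (limma adjusted p = 0.0645) and *Tfb2m* at -0.38 (limma adjusted p = 0.147), with fewer arrays, and 28 genes rose, 14 of them more than 2-fold, and the median was 0.62. The share of all probesets that rose was not counted for that fit. The part that other cells of the marrow had in these differences was not tested.

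**Figure D3:**
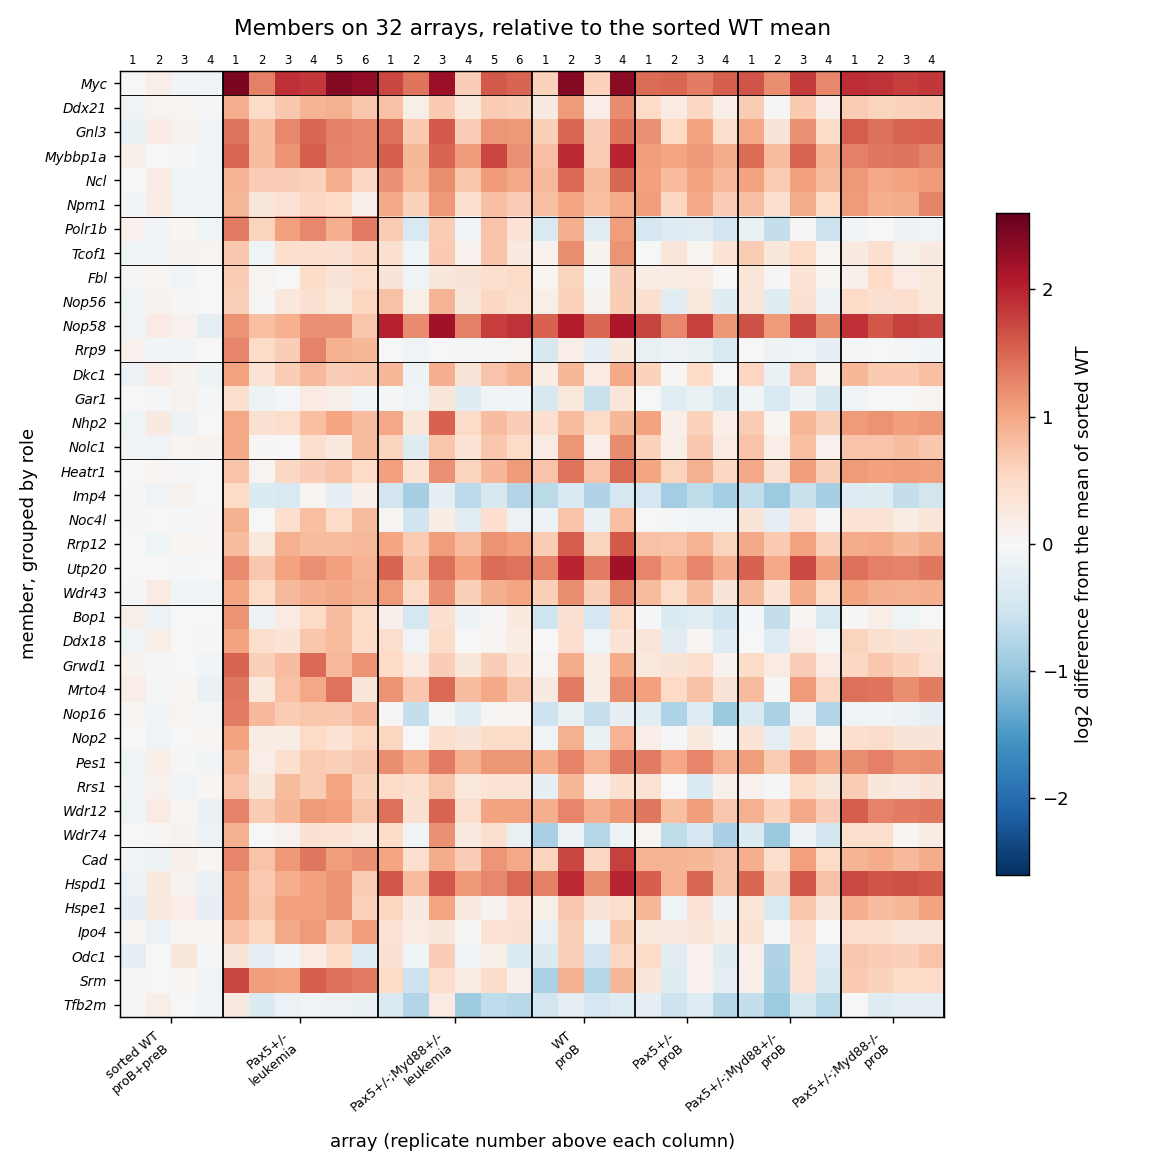
Log2 difference of each of the 39 genes (rows, grouped by role) on each of 32 arrays (columns, replicate numbers on top) from the mean of the 4 sorted WT arrays, red for higher and blue for lower. *Myc* and *Nop58* are red on all 28 other arrays, whereas *Srm*, *Nop16* and *Rrp9* are at their highest in the 6 Pax5+/- leukemias.

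Between the leukemias, some of the genes were higher and others lower in the group that lacks 1 *Myd88* allele. Of the 39 genes, 4 were higher and 10 lower in the Pax5+/-;Myd88+/- leukemias (18.1% and 16.3% of all probesets), and the median was -0.10 against 0.01 over all probesets. More than 2-fold, 1 of them was lower and none higher (2.57% and 1.25% of all probesets). In 6 genes the groups did not overlap, a share near the 14.3% of all probesets. The share of the 39 that was higher lay under that of all probesets, and the share that was lower lay above it. The lower ones were *Srm*, *Nop16*, *Rrp9*, *Polr1b*, *Grwd1*, *Noc4l*, *Ipo4*, *Hspe1*, *Imp4* and *Ddx18*, and the higher ones *Nop58*, *Pes1*, *Hspd1* and *Ncl*. *Myc* differed by -0.51 (SE 0.23) and did not pass (limma adjusted p = 0.0999, 2-sided exact permutation p = 0.0931). It passed without the 4 leukemias of lowest B lineage markers, where the difference was -0.48 (limma adjusted p = 0.0424). In that fit, with fewer arrays, *Ddx18* (limma adjusted p = 0.0846), *Hspe1* (limma adjusted p = 0.103) and *Imp4* (limma adjusted p = 0.0682) no longer passed. With all leukemias, *Ncl* did not pass after centring each array on its median (limma adjusted p = 0.107) or after quantile normalization (limma adjusted p = 0.0606).

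*Srm* read 11.70, 11.05, 11.00, 11.51, 11.40 and 11.32 in Pax5+/- leukemia and 10.45, 9.43, 10.41, 10.16, 10.44 and 10.10 in Pax5+/-;Myd88+/- leukemia. The groups were well apart, and Pax5+/-;Myd88+/- replicate 2 stood far under the rest of its group. *Srm* fell by 1.17 (SE 0.16, 2.24-fold, limma adjusted p = 5.56e-05), and the difference was -1.005 without the 4 leukemias of lowest B lineage markers. *Nop16* read 11.37, 10.88, 10.71, 10.76, 10.75 and 10.88 against 10.08, 9.42, 9.99, 9.77, 10.08 and 10.09, and fell by 0.99 (SE 0.13, limma adjusted p = 2.41e-05). *Rrp9* fell by 0.93 (SE 0.11, limma adjusted p = 1.87e-05), with 8.64 to 9.43 in Pax5+/- leukemia and 8.06 to 8.21 here.

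*Nop58* was among the higher genes. It read 11.29, 10.52, 11.46, 10.60, 11.09 and 11.17 in Pax5+/-;Myd88+/- leukemia and 10.46, 10.06, 10.20, 10.47, 10.48 and 10.00 in Pax5+/- leukemia, higher by 0.74 (SE 0.16, limma adjusted p = 0.00198) with no overlap. *Pes1* was higher by 0.55 (SE 0.10, limma adjusted p = 0.000874), also without overlap. *Hspd1* was higher by 0.38 with the brighter probeset, while the other gave -0.44 (limma adjusted p = 0.0773), so its direction rests on the probeset. *Hspe1* fell by 0.54, and its other probeset gave -0.59. Genes of the box C/D particle and of large-subunit assembly stood on both sides, and a pattern by role was not tested.

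**Figure D4:**
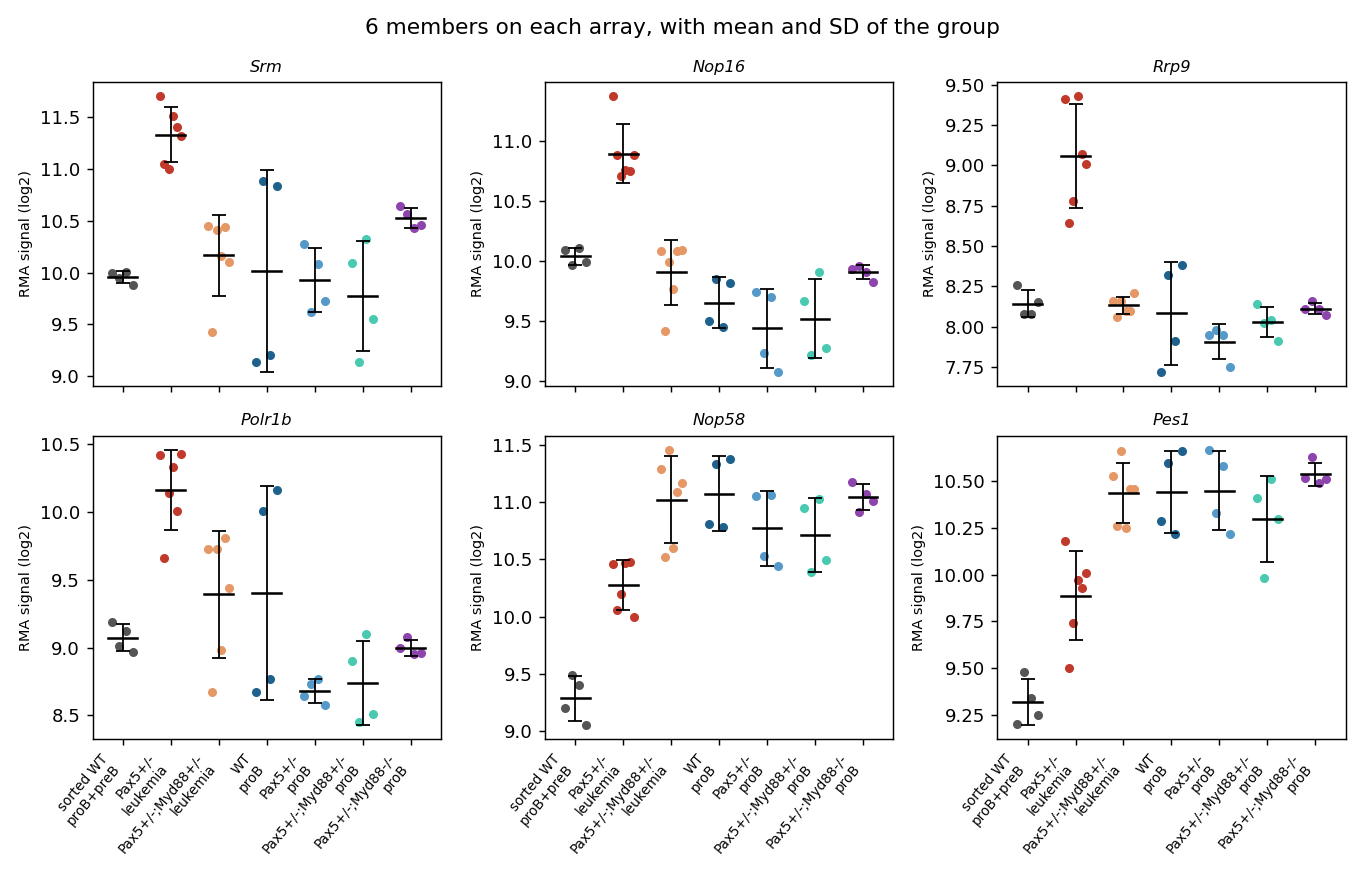
Log2 signal (vertical axes) of *Srm*, *Nop16*, *Rrp9*, *Polr1b*, *Nop58* and *Pes1* on each array of the 7 groups (horizontal axes), with group mean and SD in black. *Srm*, *Nop16* and *Rrp9* separate the 6 Pax5+/- leukemias from all 26 other arrays. *Nop58* separates the 4 sorted WT arrays from all 28 others (9.49 or less, against 10.00 or more), and *Pes1* does so only narrowly (9.48 or less, against 9.50 or more).

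Seen over all 32 arrays, 3 of the 39 genes lay higher in every Pax5+/- leukemia than on any of the 26 other arrays (1.43% of all probesets). These were *Srm* (11.00 or more, against 10.88 or less), *Nop16* (10.71 or more, against 10.11 or less) and *Rrp9* (8.64 or more, against 8.38 or less). No gene stood apart in this way in the Pax5+/-;Myd88+/- leukemias or in a proB genotype. In sorted WT cells, 13 of the 39 were lower than on all 28 other arrays, as were 3.09% of all probesets. These were *Myc*, *Nop58*, *Mybbp1a*, *Ncl*, *Rrp12*, *Wdr43*, *Pes1*, *Wdr12*, *Gnl3*, *Utp20*, *Heatr1*, *Cad* and, by its brighter probeset, *Hspd1*. The gap was narrow for *Pes1* (9.48 or less, against 9.50 or more) and *Heatr1* (9.52 or less, against 9.54 or more). No gene of the 39 was above all other arrays in sorted WT cells, as 4.37% of all probesets were.

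In WT proB cells, also free of leukemia, many of the genes were higher than in sorted WT cells. Of the 39, 21 rose and 1 fell (22.9% and 19.6% of all probesets), with a median of 0.57 against 0.04 over all probesets, and 12 rose and none fell more than 2-fold (3.75% and 6.2% of all probesets). In 21 the arrays did not overlap, as in 46.8% of all probesets. *Nop58* was higher by 1.79, *Utp20* by 1.70 and *Hspd1* by 1.61, although the other *Hspd1* probeset gave 0.495 and did not pass (limma adjusted p = 0.215). *Myc* was higher by 1.48 (SE 0.33, limma adjusted p = 0.000509) and missed the threshold with the methods' t-test (adjusted p = 0.0592), and *Imp4* fell by 0.58. For the same genes the Pax5+/-;Myd88+/- leukemias gave 1.74, 1.27, 1.32, 1.52 and -0.57 over the same 4 sorted WT arrays. The comparisons share those arrays. By *Xist* the WT proB arrays were male and the sorted WT arrays female, so how the cells were obtained, sex and any array batch cannot be told apart here. For *Srm* the WT proB cells gave 0.06 (95% interval -0.57 to 0.68), and its replicates 2 and 4 (10.88 and 10.83) lay above and replicates 1 and 3 (9.14 and 9.21) below the sorted cells.

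Set against proB cells of their own genotype, the leukemias differed in a narrower group of genes. These comparisons set leukemic marrow, with its other cells, against proB cells. Leukemia, how the cells were obtained, other marrow cells, sex and any array batch cannot be told apart in them. The Pax5+/- leukemias were higher than Pax5+/- proB cells in 14 of the 39 and lower in 3 (22.3% and 31.1% of all probesets), with a median of 0.34 against -0.05. More than 2-fold, 4 rose and none fell (6.06% and 2.42% of all probesets), and 10 did not overlap (33.9% of all probesets). *Polr1b* rose by 1.49 (SE 0.24), from 8.64, 8.73, 8.77 and 8.58 in the proB arrays to 9.66, 10.235 and 10.43 (lowest, median, highest). *Nop16* rose by 1.45 (SE 0.15), *Srm* by 1.40 (SE 0.28) and *Rrp9* by 1.15 (SE 0.12), each with no overlap. *Pes1* (-0.56), *Nop58* (-0.49) and *Npm1* (-0.36) fell, but with proB replicates 1 and 3, and 2 and 4, averaged *Nop58* (limma adjusted p = 0.109) and *Npm1* (limma adjusted p = 0.12) no longer passed. *Myc* was higher by 0.57 (95% interval -0.04 to 1.18) and did not pass (limma adjusted p = 0.106), with a 2-sided exact permutation p of 0.0476. It passed with only the compared groups in the fit (limma adjusted p = 0.0434), and without the 4 leukemias of lowest B lineage markers it was higher by 0.80 (limma adjusted p = 0.0239). In Pax5+/-;Myd88+/- mice the leukemias were higher than the proB cells in 1 gene, *Wdr74*, a WD-repeat factor of the large subunit (0.82, SE 0.22, limma adjusted p = 0.0122), and lower in none (6.36% and 8.21% of all probesets). The unadjusted test gave 4 higher and none lower, with no share of all probesets counted, and the methods' t-test gave none in either direction after adjustment. No gene of the 39 changed more than 2-fold (1.95% of all probesets rose and 0.895% fell as far), and none was free of overlap (10% of all probesets). Without the 4 leukemias of lowest B lineage markers 7 rose, with no share of all probesets counted for that fit.

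The allele effect itself differed between leukemia and proB cells for 6 genes, tested as an interaction over all 32 arrays, a share of the 39 no larger than that of all probesets. It was more positive in leukemia for *Nop58* (0.80, SE 0.25, limma adjusted p = 0.0229) and *Pes1* (0.70, SE 0.17, limma adjusted p = 0.00325). It was more negative for *Nop16* (-1.07, SE 0.21, limma adjusted p = 0.000506), *Rrp9* (-1.04, SE 0.17, limma adjusted p = 4.8e-05), *Noc4l* (-0.80) and *Grwd1* (-0.73). These are 2 and 4 of the 39, where 10.7% and 11.1% of all probesets passed in the same directions, and *Nop16* and *Rrp9* were the 2 more than 2-fold lower (2.8% of all probesets, with 1.76% higher). With the proB replicates averaged, *Nop58* (limma adjusted p = 0.157), *Noc4l* (limma adjusted p = 0.175) and *Grwd1* (limma adjusted p = 0.153) no longer passed. *Srm* did not pass at -1.01 (limma adjusted p = 0.0662). In proB cells *Nop16* differed by 0.08, *Rrp9* by 0.12 and *Nop58* by -0.06 between Pax5+/-;Myd88+/- and Pax5+/- cells, and none passed.

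Among the proB genotypes, no gene of the 39 passed between Pax5+/- and WT cells in limma (4.1% of all probesets were higher and 2.96% lower). No gene was free of overlap (10.2% of all probesets). The median was -0.23 against -0.005 over all probesets, 36 of 39 were below 0, and 2 were lower at an unadjusted p, *Polr1b* (-0.72) and *Utp20* (-0.58). The shares of all probesets below 0 and at an unadjusted p were not counted. Without WT replicate 1, or without WT replicate 3, 2 genes were lower after adjustment. In WT cells all 39 genes were higher in replicates 2 and 4 than in replicates 1 and 3 (22.9% of all probesets), by a median of 0.715, and *Myc* was apart by 1.765, more than any other of the 39. In Pax5+/- cells 30 of 39 were instead lower in replicates 2 and 4 (23.5% of all probesets), and in Pax5+/-;Myd88+/- cells 37 of 39 were (16.2% of all probesets), with medians of -0.35 and -0.49. In Pax5+/-;Myd88-/- cells 5 were higher and 4 lower (13.3% and 17.9% of all probesets). WT replicates 1 and 3, and 2 and 4, correlated at 0.9982 and 0.9979 over all probesets, against 0.9906 to 0.9912 between the pairs. Stromal markers were higher in replicates 1 and 3 of WT (8.17 and 8.19, against 7.56 and 7.57), of Pax5+/- (8.15 and 8.27, against 7.15 and 7.19) and of Pax5+/-;Myd88+/- cells (7.92 and 7.84, against 7.31 and 7.27), and their part in the result was not tested. The labels name no culture or batch, and p-values among the proB groups then measure the spread of these arrays only.

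**Figure D5:**
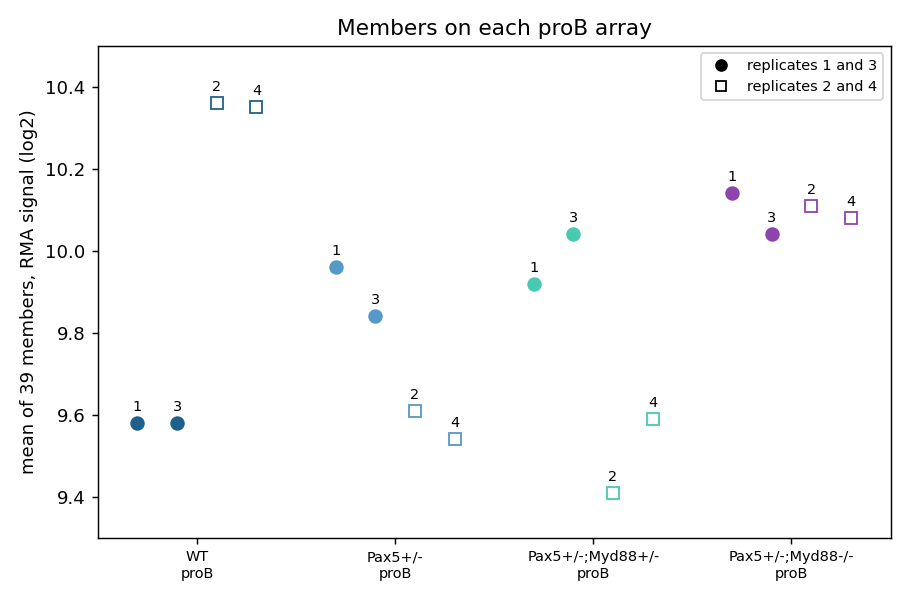
Mean log2 signal of the 39 genes (vertical axis) on each of the 16 proB arrays by genotype (horizontal axis), filled circles for replicates 1 and 3 and open squares for replicates 2 and 4. Replicates 2 and 4 are the higher pair in WT cells (10.36 and 10.35, against 9.58 and 9.58) and the lower pair in Pax5+/- and Pax5+/-;Myd88+/- cells, and the 4 Pax5+/-;Myd88-/- arrays lie at 10.04 to 10.14.

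No difference passed in proB cells that lacked 1 *Myd88* allele. Between Pax5+/-;Myd88+/- and Pax5+/- cells none of the 39 passed in limma, adjusted or not (2.02% of all probesets were higher and 2.29% lower), the methods' t-test gave none after adjustment, the median was 0.01 and no gene was free of overlap (7.97% of all probesets). *Myc* differed by 0.02 (95% interval -0.69 to 0.72). By *Xist* the Pax5+/- arrays were male and those of both *Myd88*-deficient genotypes female, so genotype and sex cannot be told apart in this comparison or the next. Compared with Pax5+/- cells, 3 of the 39 rose in Pax5+/-;Myd88-/- cells and none fell (6.66% and 4.86% of all probesets), and the rises were near that background. All 39 differences were above 0, with a median of 0.32 against -0.02. The share of all probesets above 0 was not counted, so that direction count has no background to be read against. In 20 of the 39 genes the groups did not overlap (16.3% of all probesets). *Nhp2* read 10.00, 10.06, 9.97 and 10.03 against 9.93, 9.03, 9.49 and 9.07 and rose by 0.64 (limma adjusted p = 0.0395). *Wdr74* rose by 0.76 (limma adjusted p = 0.0321) and *Ddx18*, a nucleolar helicase of the large subunit, by 0.48 (limma adjusted p = 0.0495). *Myc* was higher by 0.40 and did not pass (limma adjusted p = 0.484), although its groups did not overlap (2-sided exact permutation p = 0.0286, the smallest 4 against 4 allow).

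The fit shares 1 estimate of the spread over the 4 genotypes, WT included. Fitted without the other genotypes, 16 of the 39 rose in this comparison, where 8.24% of all probesets did, *Myc* among them (limma adjusted p = 0.00183), whereas none rose when replicates 1 and 3, and 2 and 4, of every genotype were averaged first. Compared with Pax5+/-;Myd88+/- cells, 4 of the 39 rose in Pax5+/-;Myd88-/- cells and none fell (6.34% and 4.04% of all probesets), and 11 did not overlap (18.4% of all probesets). They were *Wdr74* (0.78), *Gnl3* (0.77), *Wdr12*, the partner of PES1 and BOP1 (0.60), and *Tfb2m* (0.47). Here too none rose once the replicates were averaged, and the comparisons share the Pax5+/-;Myd88-/- arrays.

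Of the 9 genes with an E-box in the printed windows, 8 rose in Pax5+/- leukemia (11.7% of all probesets) and 6 in Pax5+/-;Myd88+/- leukemia (13.8% of all probesets), where *Imp4* fell. Of the 22 other genes with a window, 16 and 11 rose, and *Tfb2m* fell in the second. Between the leukemias *Pes1* and *Hspd1*, with an E-box, were higher, and *Grwd1*, *Ipo4* and *Imp4*, also with one, were lower, and of the 22 others 2 were higher and 6 lower (18.1% and 16.3% of all probesets). *Hspd1* is counted by its brighter probeset. The other probeset passed in Pax5+/- leukemia (0.86), but not in Pax5+/-;Myd88+/- leukemia (0.43) or between the leukemias (-0.44).

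Further genes of the same pathways were counted from lists that were not part of the set. Over all probesets 11.7% rose and 12.8% fell in Pax5+/- leukemia, and 13.8% rose and 17.1% fell in Pax5+/-;Myd88+/- leukemia. Between the leukemias 18.1% of all probesets were higher and 16.3% lower in Pax5+/-;Myd88+/- mice. Of 43 other genes of large-subunit assembly, 21 rose and 3 fell in Pax5+/- leukemia against sorted WT cells, and 16 rose and 4 fell in Pax5+/-;Myd88+/- leukemia. *Rrp1b*, a nucleolar protein, rose by 1.39 and 1.38 and *Sdad1*, an assembly factor, by 1.09 and 1.84. Of 43 other genes of small-subunit assembly, 17 rose and 2 fell in the first comparison and 15 rose and 5 fell in the second, where *Imp3*, a partner of IMP4 in the U3 particle, fell by 1.44. Between the leukemias 5 of these were higher and 12 lower in Pax5+/-;Myd88+/- mice, among them *Imp3* (-1.45) and *Dimt1*, an RNA dimethyltransferase (-1.495). Of 42 other anabolic genes known as MYC targets, 26 rose and none fell in Pax5+/- leukemia, where *Apex1*, a DNA repair enzyme, rose by 1.55 and *Shmt2*, a mitochondrial enzyme of one-carbon metabolism, by 1.36. In Pax5+/-;Myd88+/- leukemia 17 of them rose and 4 fell, and between the leukemias 2 were higher and 18 lower, among them *Nampt*, an enzyme of NAD synthesis (-1.005), and the amino acid transporter gene *Slc3a2* (-0.99).

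Of 21 genes that encode partners and antagonists of MYC, 2 rose and 6 fell in Pax5+/- leukemia and 1 rose and 6 fell in Pax5+/-;Myd88+/- leukemia, among them *Mlx*, a partner of the related MLXIP protein (-0.52 and -1.10), and *Mxi1*, a MAX-binding antagonist (-0.59 and -0.54). Of 15 further genes of RNA polymerase I transcription, 5 rose and 2 fell in the first comparison and 4 rose and 4 fell in the second, where *Taf1d*, a subunit of the polymerase I selectivity factor, rose by 1.01 and 1.32. Of 41 genes of S phase and mitosis, 3 rose and 6 fell in Pax5+/- leukemia, and 3 rose and 16 fell in Pax5+/-;Myd88+/- leukemia. Beside the 11.7% and 12.8%, and the 13.8% and 17.1%, of all probesets, the counts of the S phase genes in Pax5+/- leukemia and of the MYC partners that rose were near or under the background.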

How the data were processed

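RNA of 32 samples in 7 groups was read on Affymetrix mouse gene arrays. The authors summarized the arrays to gene-level RMA values with Transcriptome Analysis Console (build mm10), and the deposited values are log2 signals rounded to 2 decimals. Whether all arrays were normalized together is not given in the sources used here. Array medians lay between 6.88 and 7.03 and replicates correlated at 0.9666 or more. Groups and replicates come from the sample labels. Of 28944 probesets, 21789 name 1 gene in the platform's annotation, and 8 of the 39 measured genes have more than 1. Every probeset was fitted with limma (version 3.58.1, R version 4.3.3), with moderated variances and p-values adjusted by Benjamini-Hochberg across the 28944 probesets, a probeset passing under 0.05. The model was fitted to the 3 groups of leukemias and sorted cells, to the 4 proB groups, or to all 7 where a comparison crossed them. RMA levels are not per length, so levels of different genes were not compared. *Myc* was also tested by exact permutation. In simulated data 91 to 100 of 100 probesets changed by 1.5 on the log2 scale and 64 to 94 of 100 changed by 0.75 were recovered over the 11 comparisons, with 2 to 18 false calls. The simulated noise was independent between arrays, with the same spread in every group, and few probesets were changed. The real groups differ in spread, with a *Myc* SD of 1.02 in WT proB and 0.05 in Pax5+/-;Myd88-/- cells, and some replicates pair up. These figures thus check the fit and do not measure recovery in the real arrays. Genes were named by rule: *Myc*, in each comparison the 3 that passed with the largest rise and fall, the extremes of each role, and the 2 largest of each further list. Others were named after their values were seen, where a count or a description needed them. The genes, lists and rules were chosen with earlier results of these data known. The precision is limited by the number of arrays.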

Additional observations from a re-analysis of the deposited data

Results flagged for a closer look

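In groups of 4 or 6 arrays, a single array stood far from the rest of its group in 5 of 140 checks over 19 named genes and the mean of the 39, where chance gives about 1 in 20. These were *Srm* in Pax5+/-;Myd88+/- leukemia replicate 2 (9.43), *Nop16* in Pax5+/- leukemia replicate 1 (11.37), *Gnl3* in Pax5+/- leukemia replicate 2 (10.10), *Rrp9* in Pax5+/- proB replicate 4 (7.75) and *Npm1* in sorted WT replicate 2 (11.27). Of these, both leukemias named replicate 2 are among the 4 with the lowest early B lineage markers.

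The effect of the *Myd88* allele differed between leukemia and proB cells, by the interaction test, for *Nop58* (0.80), *Pes1* (0.70), *Nop16* (-1.07), *Rrp9* (-1.04), *Noc4l* (-0.80) and *Grwd1* (-0.73). These are 2 higher and 4 lower of the 39, no larger a share than the 10.7% and 11.1% of all probesets, and with proB replicates 1 and 3, and 2 and 4, averaged *Nop58*, *Noc4l* and *Grwd1* no longer passed. The leukemias of both genotypes also differed in sex by *Xist* and in their content of other cells, and the proB genotypes in sex, and the part of these was not tested.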

How the results depend on the processing

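Each of 55 counts and medians over the 39 genes, and 127 values of single genes, was recomputed under 14 other settings, and by leaving out each array in turn (60 refits). Of 592 counts and medians under the other settings, 547 changed by less than 1.5 times or, for medians, by less than the spread. The cause of the others was not tested. In what follows, a comparison is named by its groups and a count is that of the 39 genes. These counts stand without the share of all probesets and show only how the counts move. With only the compared groups in the fit, the shares were counted. Lower were 18.1% in Pax5+/-;Myd88+/- leukemia and 22.8% in WT proB, each against sorted WT. Higher in Pax5+/-;Myd88-/- proB were 8.24% against Pax5+/- and 9.12% against Pax5+/-;Myd88+/- proB. Higher were 2.57% in Pax5+/-;Myd88+/- leukemia against its proB cells, and 7.94% for the allele effect. For Pax5+/-;Myd88+/- leukemia against sorted WT, 1 gene was lower with only the compared groups in the fit, with the replicate block and with the methods' t-test, and 1 to 2 without single arrays (1 without any of the leukemias 2, 4, 5 and 6 or of WT arrays 1, 2 and 3); without the 4 leukemias of lowest B lineage markers 0 were lower, 14 were over 2-fold higher and the median was 0.62. Between the leukemias, 2 were higher after centring each array or with the methods' t-test, 7 after quantile normalization or without those 4 leukemias, and 2 to 7 without single arrays (7 without Pax5+/-;Myd88+/- replicate 2). There 16 were lower at an unadjusted p, 10 to 16 without single arrays (16 without Pax5+/- replicate 2), and over 2-fold lower were 2 after centring and 1 to 2 without single arrays. *Hspd1* turned to -0.027 with the mean of its probesets. For Pax5+/- against WT proB, 2 were lower at an unadjusted p and 0 to 2 without single arrays (2 without WT replicate 1 or 3), and *Myc* ranged from -0.32 to 0.28. For Pax5+/-;Myd88+/- against Pax5+/- proB, *Myc* ranged from -0.10 to 0.11 without single arrays. For Pax5+/-;Myd88-/- against Pax5+/- proB, higher genes numbered 0 in 1 fit of all arrays or with averaged proB replicates, 16 with only the compared groups, 6 over probesets with a mean of at least 6, 12 at an unadjusted p and 0 to 8 without single arrays (8 without Pax5+/- replicate 1, 0 without Pax5+/- replicates 2, 3 or 4 or Pax5+/-;Myd88-/- replicates 1, 2 or 4, and 1 without Pax5+/-;Myd88-/- replicate 3). For Pax5+/-;Myd88-/- against Pax5+/-;Myd88+/- proB, the same settings gave 1, 0, 10, 8, 14 and 1 to 11 (11 without Pax5+/-;Myd88+/- replicate 3), the methods' t-test gave 1, and 0 to 1 were over 2-fold higher without single arrays. For WT proB against sorted WT, lower genes numbered 4 with only the compared groups, 2 with the replicate block, 3 with the methods' t-test and at an unadjusted p, and 1 to 2 without single arrays (2 without WT proB replicate 2). For Pax5+/- leukemia against its proB cells, 1 was lower after centring, with the methods' t-test or with averaged proB replicates, and 1 to 3 without single arrays (1 without proB replicate 1 or 3). *Myc* there passed at 0.80 without the 4 leukemias of lowest B lineage markers. For Pax5+/-;Myd88+/- leukemia against its proB cells, higher genes numbered 0 with only the compared groups, the methods' t-test or averaged proB replicates, 4 at an unadjusted p, 7 without the 4 leukemias and 0 to 4 without single arrays (4 without leukemia replicate 2 or proB replicate 3). *Myc* there turned to -0.042 after quantile normalization and to -0.044 with the replicate block, and ranged from -0.10 to 0.22 without single arrays. For the allele effect in leukemia minus that in proB cells, higher genes numbered 1 with only the compared groups, after centring or with averaged proB replicates, and 1 to 3 without single arrays. Lower genes numbered 2 after quantile normalization or with averaged proB replicates, 9 at an unadjusted p and 2 to 7 without single arrays; over 2-fold lower were 0 after quantile normalization, 1 without the 4 leukemias and 0 to 3 without single arrays, and 1 was over 2-fold higher without the 4 leukemias. Samples with the same replicate number deviated together at correlations of -0.271 to 0.521, so the numbers were not taken to pair them, and the replicate block changed no other count by over 1.5 times. The averaging of replicates 1 and 3, and 2 and 4, in every proB genotype, the removal of the 4 leukemias and the unadjusted p were chosen after seeing the data.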
